A study of Bos taurus with 9 samples.

Results

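The regions described here are peaks of trimethylation of histone H3 at lysine 9 (H3K9me3) that were called in calf rumen before weaning and had no counterpart in the H3K9me3 list after weaning. They were chosen from the peak lists themselves, with positions on the cattle assembly UMD3.1.1. A peak of the list before weaning was taken when it shared no base with an H3K9me3 peak after weaning and no base with an RNA polymerase II (RNA pol II) peak at either time point, and when it lay outside a dense cluster of peaks at chr17:50000001-52000000. Of the 2410 H3K9me3 peaks before weaning, 1119 touched no H3K9me3 peak after weaning. Of these, 57 lay in the chromosome 17 cluster and 54 more touched RNA pol II, which left 1008 lost peaks, 41.8% of the list before weaning and a small part of the 130580 peaks of the series. "Lost" means here that no peak was listed at the place after weaning, which is not a measurement of zero H3K9me3.

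The lists came from chromatin immunoprecipitation and sequencing (ChIP-seq) of rumen epithelial tissue from Holstein calves, a dairy breed, before and after weaning. H3K9me3, RNA pol II and acetylation of histone H3 at lysines 9 and 27 (H3K9ac and H3K27ac) were profiled with 1 library per target and time point, 8 in total, and 1 input library served as the background for peak calling. No age, number of animals or treatment other than weaning is given for these groups in the sources used here. With 1 library per group no difference between time points or between sets of peaks was tested, and the intervals below are 95% Wilson intervals for shares and order-statistic intervals for medians, which cover counting error only and treat neighbouring peaks as independent. The H3K9me3 library before weaning was sequenced on lane 2 and that after weaning on lane 1, so lane and weaning cannot be told apart for this mark. Read depth was not analysed here, since the peak lists do not hold it and the study's mapping summary was not used. The time points of the RNA pol II lists follow the labels, whereas the study's text assigns the shorter of these lists to before weaning, so values of RNA pol II by time point carry that doubt. The choice of lost peaks uses both lists together and does not depend on their order.

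H3K9me3 is deposited by the SUV39H and SETDB1 enzymes and is bound by heterochromatin protein 1, which keeps the underlying DNA compact and silent. It is best known from pericentromeric satellite DNA, from transposable elements and from clusters of zinc finger genes. H3K9ac and H3K27ac mark active promoters and enhancers, and since acetyl and trimethyl groups cannot sit on the same lysine 9, H3K9ac and H3K9me3 exclude each other on a single histone tail. Weaning moves the calf from milk to solid feed, and the rumen epithelium then grows and begins to absorb the short-chain fatty acids of fermentation.

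The rule leaves lost and kept peaks on both sides of a narrow margin. The lost peaks closest to an H3K9me3 peak after weaning were at chr17:25067098-25067442, at 14 bp, and at chr1:2350486-2350685, at 16 bp. The next 3, on chromosomes 23, 14 and 18, lay at 21, 27 and 33 bp. On the other side, the kept peaks with the least overlap were at chr25:35519347-35519546, which shared 5 bp with a peak after weaning, and at chr10:64474990-64475247, which shared 6 bp. These peaks differ by a few bases, so membership close to the margin rests on where the caller placed a peak end. For comparison, the 521 kept peaks that were also free of RNA pol II and outside the chromosome 17 cluster are used below and are called kept peaks unless all 1291 kept peaks are named.

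Lost peaks were narrow. Their median width was 225.5 bp (95% interval 221 to 230), with a range of 200 to 856 bp, against 275 bp (267 to 284) and a range of 200 to 1345 bp for kept peaks. The lowest width in the list, 200 bp, was found for 269 of the 1008 lost peaks (26.7%, 24.0 to 29.5) and for 40 of the 521 kept peaks (7.68%, 5.69 to 10.3). The share of peaks that were lost fell with each step of width. Of peaks of 200 bp 87.1% were lost (82.9 to 90.3), of those from 201 to 250 bp 71.1% (67.2 to 74.6), of those from 251 to 350 bp 61.0% (56.3 to 65.4) and of those from 351 to 500 bp 39.6% (32.4 to 47.4). Above 500 bp, 7 peaks were lost and 51 were kept, a share of 12.1% (5.97 to 22.9). By chromosome, the median width of lost peaks was below that of kept peaks on 29 of 30 chromosomes. Over all widths 65.9% of these 1529 lost and kept peaks were lost. Over the whole H3K9me3 list before weaning, with peaks on RNA pol II and in the chromosome 17 cluster included, the share without a counterpart after weaning was 46.4%. Since the rule sorted peaks of a single list, these shares describe the list and carry no test.

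**Figure D1:**
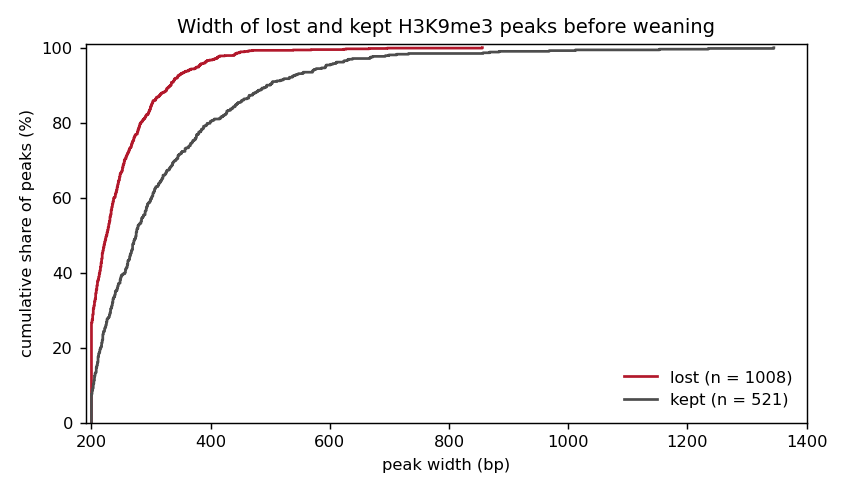
Cumulative share of peaks (vertical axis, %) by peak width (horizontal axis, bp) for 1008 lost (red) and 521 kept (grey) H3K9me3 peaks of the list before weaning. The red curve starts at 26.7% at the lowest width of 200 bp, where the grey curve starts at 7.68%, and it lies above the grey curve up to the widest lost peak of 856 bp.

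Among the 10 widest lost peaks, 5 lay within 3 kb of an H3K9me3 peak after weaning and 5 lay from 32.4 kb to 2.44 Mb from one. The widest, chr3:12020586-12021441 (856 bp), was 724 bp from an H3K9me3 peak after weaning and 898 bp from a kept peak. The peak at chr5:18739633-18740255 (623 bp) was 1023 bp from H3K9me3 after weaning and 1479 bp from H3K9ac after weaning. Those at chr9:7801990-7802527 (538 bp), chr6:6273202-6273671 (470 bp) and chr27:5546975-5547436 (462 bp) were 471, 2196 and 2548 bp from H3K9me3 after weaning. The last of these was also the one of the 10 closest to acetylation, with an H3K27ac peak after weaning at 356 bp. The peak at chr16:7357856-7358521 (666 bp) lay 32.4 kb from H3K9me3 after weaning and belonged to a long run of lost peaks. The second widest stood alone. At chr4:73610382-73611077 (696 bp) the nearest H3K9me3 peak after weaning was 2.44 Mb away, the nearest kept peak 3.14 Mb away and the nearest H3K27ac peak after weaning 1.23 Mb away. The peaks at chr23:18124547-18125173 (627 bp), chr10:30332459-30332923 (465 bp) and chr16:7731910-7732478 (569 bp) were 279.0, 242.6 and 54.5 kb from H3K9me3 after weaning.

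Lost peaks were found on chromosomes 1 to 29 and X, at 3.79 per 10 Mb over the genome, against 1.96 per 10 Mb for kept peaks. The highest numbers were 84 on chromosome 6, 70 on chromosome 18, 60 on X, 57 on chromosome 16 and 50 on chromosome 5. These 5 chromosomes held 31.8% of the lost peaks on 20.2% of the genome. Relative to length, chromosome 18 was the densest with 10.6 per 10 Mb, followed by chromosome 6 with 7.03 and chromosome 16 with 6.98, and chromosome 11 was the sparsest with 1.49. Part of the end of chromosome 18 is known for its many zinc finger genes. Lost peaks outnumbered the 521 kept peaks free of RNA pol II on 26 of the 30 chromosomes, in a set of which 65.9% were lost. Over the whole list the kept peaks were more numerous, with 1291 kept against 1119 without a counterpart. The chromosome 17 cluster held 395 peaks of that list, of which 57 had no counterpart. Outside the cluster, with peaks on RNA pol II included, 1062 of 2015 peaks had none.

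The balance of lost and kept peaks differed between chromosomes around this 65.9%. On chromosomes 18 and 6, where lost peaks were densest, 70 of 96 (72.9%, 63.3 to 80.8) and 84 of 130 peaks (64.6%, 56.1 to 72.3) were lost. Both intervals include the 65.9%. On chromosome 16, 57 of 67 peaks were lost (85.1%, 74.7 to 91.7), on X 60 of 75 (80.0%, 69.6 to 87.5) and on chromosome 5 50 of 63 (79.4%, 67.8 to 87.5). Kept peaks were in the majority on chromosomes 9, 17, 19 and 28. On these, 46 of 94 (48.9%, 39.1 to 58.9), 32 of 72 (44.4%, 33.5 to 55.9), 32 of 70 (45.7%, 34.6 to 57.3) and 12 of 26 peaks (46.2%, 28.8 to 64.5) were lost. The intervals of chromosome 16 and X do not overlap those of chromosomes 9, 17 and 19, whereas that of chromosome 28, with 26 peaks, overlaps most others. On the autosomes 7.91% of the lost peaks (6.36 to 9.80) lay in the first 5 Mb, the centromere side in cattle, against 13.4% of the kept peaks (10.7 to 16.7). Over all peaks before weaning outside the chromosome 17 cluster, lost peaks included, the share was 10.5% (9.25 to 12.0), which overlaps the interval of the lost peaks. In the last 5 Mb the shares were 5.49% (4.21 to 7.12) for lost and 3.16% (1.96 to 5.07) for kept peaks, against 3.90% (3.12 to 4.86) over all peaks outside the cluster. All 1291 kept peaks include those of the cluster, which lies at neither end. Their shares, 9.64% (8.14 to 11.4) in the first and 1.82% (1.21 to 2.71) in the last 5 Mb, are lowered by it and are not like for like.

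**Figure D2:**
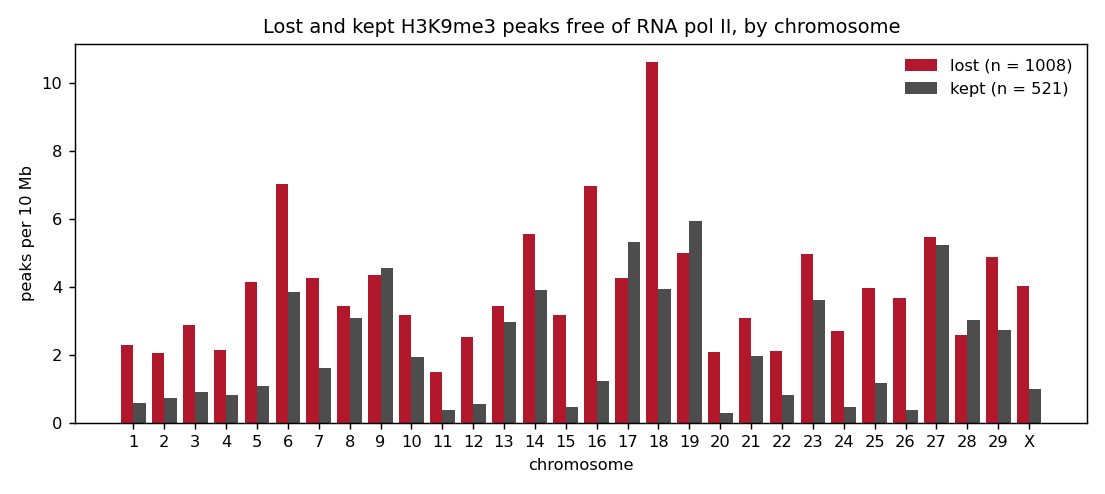
Number of peaks per 10 Mb of chromosome (vertical axis) on chromosomes 1 to 29 and X (horizontal axis) for 1008 lost (red bars) and 521 kept (grey bars) H3K9me3 peaks, without error bars since each bar is 1 library. The red bar is highest on chromosome 18, at 10.6, and the grey bar exceeds the red on chromosomes 9, 17, 19 and 28.

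Many lost peaks were solitary. Of the 1008, 581 (57.6%) had no other lost peak within 100 kb, 146 formed 73 pairs, 124 formed 35 runs of 3 to 5, and 157 formed 13 runs of 6 or more, where a run is a chain of lost peaks with gaps under 100 kb. Thus 42.4% (39.3 to 45.4) had another lost peak within 100 kb, and 48.5% (45.4 to 51.6) had any other H3K9me3 peak of the list before weaning within that distance. The latter share was 82.9% (79.4 to 85.9) for kept peaks. It was 67.3% (65.2 to 69.3) over all peaks before weaning outside the chromosome 17 cluster and 72.7% with the cluster included. The median distance to the next lost peak was 219.3 kb (162.8 to 277.0), with a range from 53 bp to 13.4 Mb.

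Both of the longest runs lay on chromosome 6, 116.5 kb apart. The run at chr6:5993518-6452168 held 33 lost peaks and the one at chr6:5394643-5876980 held 26, together 59 peaks in 1.06 Mb, or 70.2% of the lost peaks of that chromosome. The lost peaks were interspersed with H3K9me3 that persisted. In the longer run 23 H3K9me3 peaks before weaning were kept, 14 of them free of RNA pol II, and 39 peaks were listed after weaning. The shorter run held 20 kept peaks, 11 of them free of RNA pol II, and 34 peaks after weaning. Within 10 kb of H3K9me3 after weaning lay 27 of the 33 lost peaks of the longer run and 18 of the 26 of the shorter one. RNA pol II peaks numbered 16 before and 12 after weaning in the longer run, and 7 and 14 in the shorter one, none of which touched a lost peak by the rule. After weaning 6 H3K9ac and 6 H3K27ac peaks lay in the longer run and 4 and 2 in the shorter one. For H3K9ac after weaning this was 10.6 peaks per Mb over both runs, against 0.800 over all chromosomes, and for H3K27ac after weaning 8.502 against 11.5. Of the 10 H3K9ac peaks 2 touched a lost peak and the other 8 touched other H3K9me3 peaks before weaning, as did 6 of the 8 H3K27ac peaks, so the densities describe the spans rather than the lost peaks in them. Before weaning the densities over both runs were below those over all chromosomes, at 4.25 against 5.41 for H3K9ac and 3.19 against 27.9 for H3K27ac. The median gap between neighbouring lost peaks was 6.45 and 15.7 kb.

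**Figure D3:**
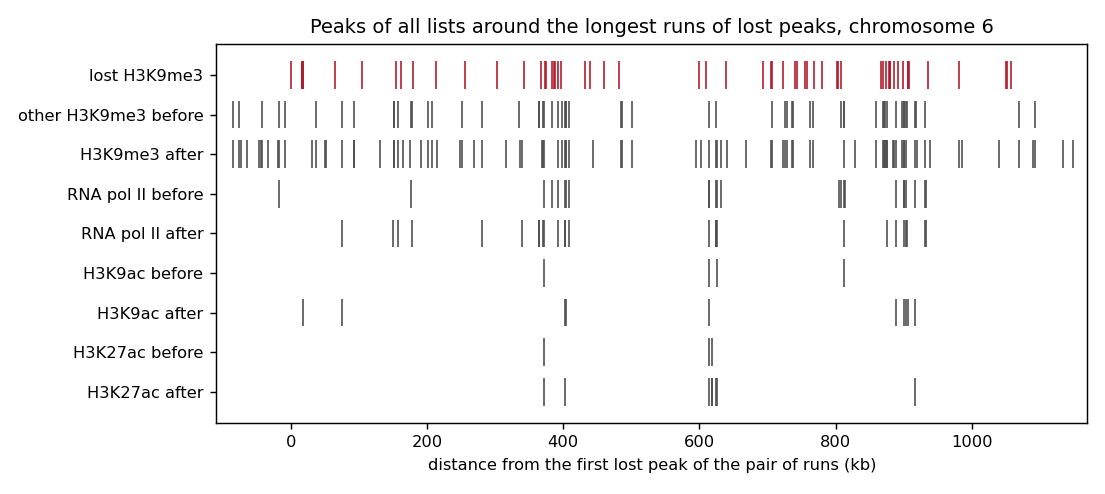
Position of each peak (vertical tick) in kb from the first lost peak, in 9 rows for lost H3K9me3 peaks (red), the other H3K9me3 peaks before weaning, H3K9me3 after weaning, and RNA pol II, H3K9ac and H3K27ac at both time points (grey), over the pair of longest runs on chromosome 6 with 100 kb on both sides. The 59 red ticks are spread among H3K9me3 peaks after weaning over 1.06 Mb.

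The other long runs were of a different make-up. At chr16:7052294-7464724, 21 lost peaks stood with 5 kept peaks and 13 peaks after weaning, and no H3K27ac peak at either time point. On X, 11 lost peaks at chrX:36253523-36716754 stood with 1 kept peak and 3 peaks after weaning, and neither acetylation nor RNA pol II was listed in the span. The 9 lost peaks at chrX:58269998-58473052 had no kept peak between the first and the last of them, and the span held 1 H3K9me3 peak and 1 H3K9ac peak after weaning. A kept peak lay just outside this span, 53 bp from the first lost peak. In contrast, the 11 lost peaks at chr18:60068315-60370108 lay in a span with 22 H3K9me3 peaks after weaning against 17 before, and with 6 H3K27ac peaks before and 3 after weaning. The most compact of the runs of 8 or more, at chr9:7756160-7813625, had 8 lost peaks in 57.5 kb beside 39 kept peaks, 45 peaks after weaning and 12 H3K9ac peaks after weaning. Among the 13 runs of 6 or more, lost peaks were thus a minority of the H3K9me3 peaks before weaning in some spans and the whole or nearly the whole of them in others.

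The distance to H3K9me3 that was kept was then measured, taking all 1291 kept peaks, those touching RNA pol II and those in the chromosome 17 cluster included. The median distance from a lost peak to the nearest kept peak was 1.25 Mb (0.992 to 1.42), and the lower quartile was 41.3 kb. For kept peaks, the median distance to another kept peak was 1.65 kb (1.34 to 3.14). Within 1 kb of a kept peak were 79 lost peaks (7.84%, 6.33 to 9.66), within 10 kb 177 (17.6%, 15.3 to 20.0), within 100 kb 297 (29.5%, 26.7 to 32.4) and within 1 Mb 473 (46.9%, 43.9 to 50.01). For kept peaks the same shares were 40.5% (36.4 to 44.8), 63.1% (58.9 to 67.2), 76.4% (72.6 to 79.8) and 82.3% (78.8 to 85.4), and over all peaks before weaning outside the chromosome 17 cluster they were 28.8%, 44.0%, 54.9% and 66.1%. Kept status defines both the set of kept peaks and the peaks that distances were measured to. The lost peaks nearest to a kept peak were at chr17:25067098-25067442 and chrX:58269998-58270231, each 53 bp away. The farthest were 5 peaks on chromosome 15, from 50.2 to 55.9 Mb away, on a chromosome where 27 of 31 peaks were lost (87.1%, 71.1 to 94.9).

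The median distance from a lost peak was shorter to H3K9me3 after weaning, which holds the counterparts of kept peaks and gained peaks, than to kept peaks. To any H3K9me3 peak after weaning it was 92.4 kb (67.3 to 125.0), with 142 lost peaks (14.1%, 12.1 to 16.4) within 1 kb, 368 between 1 and 100 kb and 498 (49.4%) farther than 100 kb. For 77 of the 142, the nearest peak after weaning was one that touched no H3K9me3 peak before weaning, and for the other 65 it touched one. Among the 498 distant ones the nearest peak after weaning was such a gained peak for 441. The list after weaning was longer than that before weaning, 4170 against 2410 peaks, which by itself shortens distances to it. Lost peaks far from H3K9me3 after weaning were narrower. Their median width was 245.5 bp (234 to 258) within 1 kb, 230 bp (224 to 235) between 1 and 100 kb and 217 bp (210 to 221) beyond, and peaks of 200 bp made up 14.1%, 20.1% and 35.1%.

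**Figure D4:**
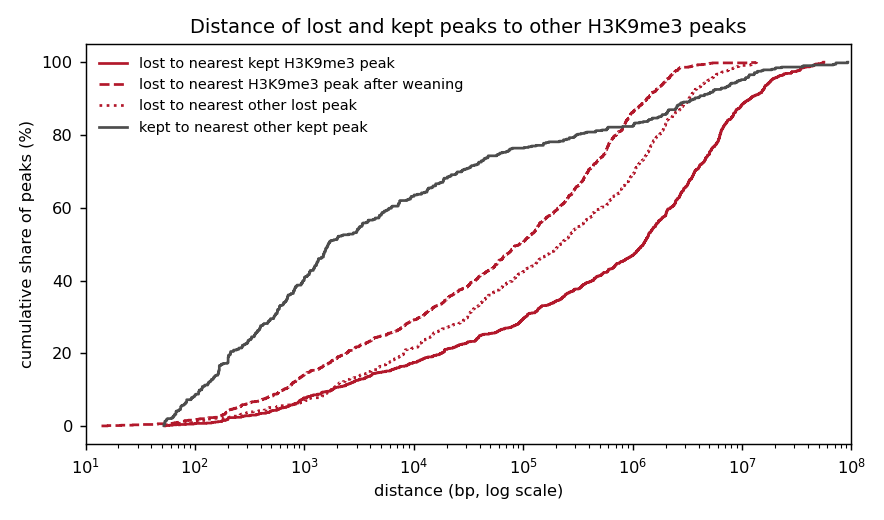
Cumulative share of peaks (vertical axis, %) by distance in bp (horizontal axis, log scale) from each of 1008 lost peaks to the nearest kept peak (red solid), to the nearest H3K9me3 peak after weaning (red dashed) and to the nearest other lost peak (red dotted), and from each of 521 kept peaks to another of the 1291 kept peaks (grey). The medians of the solid curves are 1.25 Mb for lost and 1.65 kb for kept peaks, and the dashed curve, with a median of 92.4 kb, lies left of the red solid one.

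Direct contact with acetylation was rare. Of the 1008 lost peaks, 983 touched no peak of the 4 acetylation lists. The 25 that did comprised 13 that touched acetylation before weaning, 6 that touched it after weaning and 6 that touched it at both times. Among the lists, H3K27ac before weaning was touched by 17 lost peaks (1.69%, 1.06 to 2.68), H3K9ac before by 7 (0.694%, 0.337 to 1.43), H3K9ac after by 10 (0.992%, 0.540 to 1.82) and H3K27ac after by 6 (0.595%, 0.273 to 1.29). Over all H3K9me3 peaks before weaning these shares were 2.28%, 5.19%, 12.2% and 9.5%, all higher, with the peaks on RNA pol II and in the chromosome 17 cluster included. For kept peaks free of RNA pol II they were 0.192% (0.0339 to 1.08), 0.192% (0.0339 to 1.08), 1.15% (0.529 to 2.49) and 0.576% (0.196 to 1.68), with intervals that overlap those of the lost peaks. For H3K27ac before weaning, with 17 of 1008 lost against 1 of 521 kept peaks, the overlap was small, and the difference was not tested.

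The lost peaks under acetylation before weaning were mostly far from H3K9me3 after weaning. Of the 17 that touched H3K27ac before weaning, 16 lay over 100 kb from any H3K9me3 peak after weaning, as did all 7 that touched H3K9ac before weaning, against 49.4% of all lost peaks. Acetylation was listed at both times and in both marks at chr26:44653485-44653823 (339 bp) and at chr7:41779822-41780170 (349 bp). At the first, the H3K27ac peak was 655 bp wide before and 701 bp after weaning and the H3K9ac peak 372 and 373 bp. At the second, the H3K27ac peak was 774 bp before and 390 bp after weaning and the H3K9ac peak 381 and 324 bp. In both cases the acetylation was thus already listed beside H3K9me3 before weaning, and the H3K9me3 peak was the one missing afterwards.

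At other places the acetylation lists differed between the time points. The lost peak at chr7:47449945-47450144 (200 bp) touched an H3K27ac peak of 1117 bp before and 559 bp after weaning, and an H3K9ac peak of 200 bp before weaning only. The one at chr6:103953451-103953650 (200 bp) touched an H3K27ac peak of 519 bp before and 305 bp after weaning. At chr5:118313909-118314200 (292 bp) H3K27ac was listed at both times and H3K9ac after weaning, and at chr5:51332849-51333059 (211 bp) H3K9ac at both times and H3K27ac before weaning. Acetylation was listed after weaning but not before at 6 lost peaks. Among these, chr8:73096876-73097238 (363 bp) touched both marks, with an H3K9ac peak of 223 bp and an H3K27ac peak of 236 bp, while its nearest acetylation before weaning was 678.8 kb away. The other 5 touched H3K9ac and not H3K27ac, at chr6:5411379-5411629, chr6:6301490-6301790, chr13:64382070-64382365, chr15:75977984-75978201 and chrX:58309325-58309524, with H3K9ac peaks of 201 to 272 bp. Of these 5, 3 belonged to the long runs above, 2 to the pair on chromosome 6 and 1 to the second run on X.

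With all acetylation peaks used, the distance to acetylation after weaning was longer for lost than for kept peaks. For H3K9ac the median was 405.5 kb (348.7 to 466.8) for lost and 113.9 kb (74.9 to 157.7) for kept peaks. For H3K27ac it was 89.5 kb (79.1 to 107.7) against 49.1 kb (38.8 to 64.7). Within 10 kb of H3K9ac after weaning were 104 lost peaks (10.3%, 8.59 to 12.3) and 31.3% of the kept peaks (27.5 to 35.4), against 37.7% of the whole list. For H3K27ac these were 155 lost peaks (15.4%, 13.3 to 17.7) and 30.3% of the kept peaks (26.5 to 34.4), against 39.8% of the whole list. The median of lost peaks was the longer one on 21 of 30 chromosomes for H3K9ac and on 22 for H3K27ac. The ratio of the medians, lost over kept, was 3.56 for H3K9ac and 1.82 for H3K27ac after weaning, and it moved widely with the choice of peaks. It was 37.6 and 7.58 with RNA pol II not used, 16.0 and 4.36 with the chromosome 17 cluster kept, 1.98 and 1.00 after merging peaks within 1 kb, and 0.594 and 0.617, the opposite order, without acetylation peaks on H3K9me3.

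Before weaning the order depended on the mark. The median distance to H3K27ac was shorter for lost peaks, at 71.1 kb (62.7 to 85.0) against 113.5 kb (81.7 to 137.5), and the intervals overlap. It was the shorter one on 18 of 30 chromosomes. Within 10 kb of H3K27ac before weaning were 16.9% of the lost (14.7 to 19.3) and 11.3% of the kept peaks (8.88 to 14.3). For H3K9ac before weaning the median was longer for lost peaks, at 161.8 kb (138.8 to 183.4) against 106.5 kb (83.7 to 120.8), with 9.62% (7.95 to 11.6) and 17.5% (14.4 to 21.0) within 10 kb. Over all peaks before weaning outside the chromosome 17 cluster the shares within 10 kb were 17.6% for H3K27ac and 20.0% for H3K9ac before weaning. With the cluster included they were 18% and 24.2%. Merging peaks within 1 kb brought the ratio of lost to kept medians for H3K9ac before weaning from 1.52 to 0.995, and keeping the chromosome 17 cluster brought that for H3K27ac before weaning from 0.626 to 1.04. The lists differ in length, with 14384 H3K9ac and 74249 H3K27ac peaks before and 2127 and 30446 after weaning, so distances are compared here between sets of peaks within a list and not between lists.

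**Figure D5:**
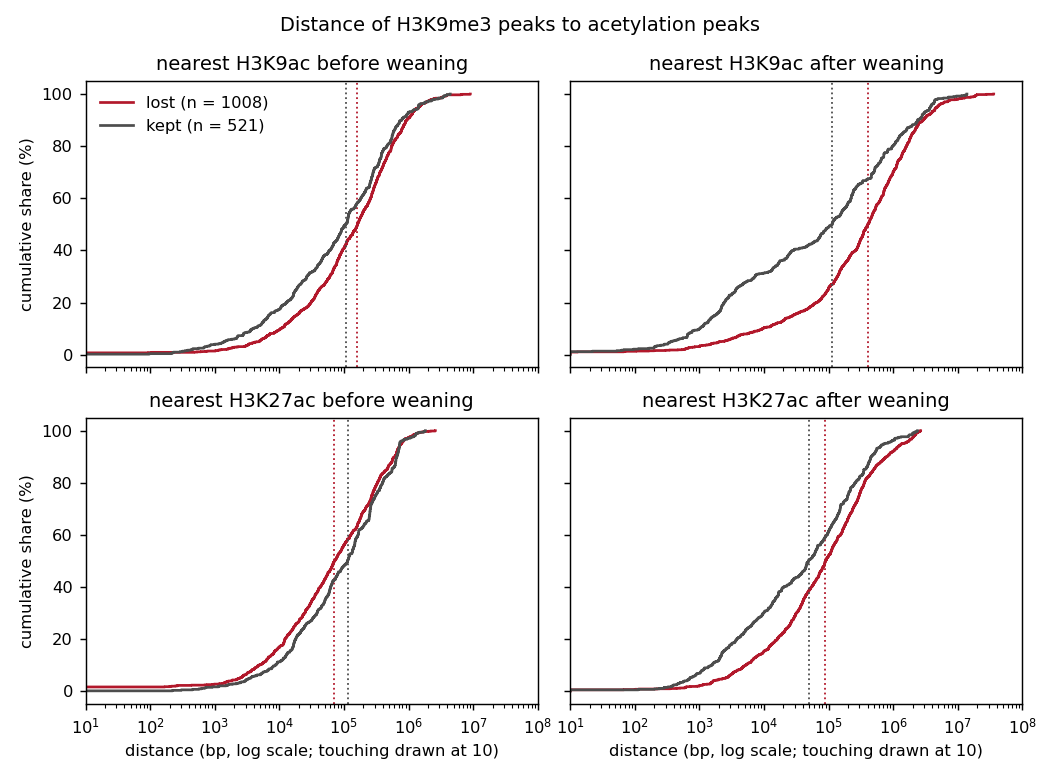
Cumulative share of peaks (vertical axis, %) by distance in bp (horizontal axis, log scale, peaks that touch drawn at 10) to the nearest H3K9ac (upper panels) and H3K27ac peak (lower panels) before (left) and after weaning (right), for 1008 lost (red) and 521 kept (grey) peaks with dotted lines at the medians. Red lies right of grey after weaning, with medians of 405.5 and 113.9 kb for H3K9ac and 89.5 and 49.1 kb for H3K27ac, and left of grey over most of the range for H3K27ac before weaning.

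The order after weaning turned when acetylation peaks that themselves touched H3K9me3 were left out. Such peaks made up 15.04% of the H3K9ac list after weaning (320 peaks) and 0.857% of the H3K27ac list after weaning (261 peaks). With them left out, an alternative added after seeing the data, the lost peaks were the nearer ones. The median distance to H3K9ac after weaning became 788.7 kb for lost (704.4 to 890.6) and 1.33 Mb for kept peaks (1.14 to 1.62), and that to H3K27ac after weaning 140.6 kb (119.7 to 169.2) and 227.9 kb (195.2 to 271.0). Before weaning the lost peaks were then nearer in both marks, with 269.7 kb (237.9 to 296.7) and 357.9 kb (291.1 to 489.2) for H3K9ac and 86.9 kb (72.6 to 103.2) and 151.9 kb (136.0 to 200.1) for H3K27ac. The exclusion uses both H3K9me3 lists and so removes, by construction, any acetylation peak on a lost or kept peak. It need not act evenly on lost and kept peaks. Another H3K9me3 peak before weaning lay within 100 kb of 48.5% of the lost and 82.9% of the kept peaks. The part of this in the turned order was not tested.

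Width moved with distance as well. Among peaks of 200 to 250 bp, the median distance to H3K9ac after weaning was 461.8 kb for 674 lost and 225.5 kb for 205 kept peaks, and for H3K27ac after weaning 93.1 and 82.4 kb. Among peaks above 350 bp it was 191.8 kb for 70 lost and 26.2 kb for 147 kept peaks, and 64.7 and 26.99 kb for H3K27ac. With all acetylation peaks used, the median of the lost peaks was thus the longer one in both of these width ranges, with the narrowest gap for H3K27ac at the lowest widths. Distances by width were not computed without acetylation peaks on H3K9me3, where the order over all widths was the opposite. Distance to H3K9me3 after weaning, kept or gained, moved with it too. Of the 142 lost peaks within 1 kb of H3K9me3 after weaning, 32.4% (25.2 to 40.5) lay within 10 kb of H3K9ac and 38.0% (30.5 to 46.2) within 10 kb of H3K27ac after weaning. Of the 498 beyond 100 kb these were 2.61% (1.53 to 4.41) and 10.4% (8.05 to 13.4). For H3K9ac before weaning the shares were 25.4% (18.9 to 33.1) and 5.62% (3.92 to 8.01). For H3K27ac before weaning they were 19.7% (14.0 to 27.02) and 18.1% (14.9 to 21.7), with overlapping intervals. Lost peaks far from H3K9me3 after weaning were thus less often near H3K9ac at both times and H3K27ac after weaning, by more than these intervals. Part of this is fixed by construction. A lost peak over 100 kb from H3K9me3 after weaning cannot lie within 10 kb of an acetylation peak that touches it. The part of width and of clustering in the distances was not tested.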

How the data were processed

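ChIP-seq libraries of calf rumen epithelial tissue, 1 per target and time point, were grouped by the labels. The authors removed reads that failed the sequencer's quality filter, aligned the others with BWA to the cattle assembly UMD3.1.1, kept unique alignments with few mismatches and called peaks with MACS2 against the input. The deposited values, per the labels and the files, are start and end positions of peaks in bp, with no other score, height or p-value, so peak strength could not be used, and depth was not analysed here. End minus start was at least 199 bp in every list, and positions were read as 1-based with both ends included.

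Peaks touched when they shared at least 1 bp. Distances ran between nearest ends on the same chromosome. Genome extent was the highest peak end per chromosome over the 8 lists, 2658 Mb in total. Regions named were the 10 widest lost peaks, those nearest to or touching acetylation after weaning, the longest runs, and those nearest to, farthest from or on the margin to H3K9me3 peaks. The 4 shorter runs given (on chromosomes 18, 9 and X) and the peaks with acetylation before weaning were named after their values were seen. Overlap and distance functions were tested on simulated data (Python 3.11.15, numpy 2.4.6, scipy 1.17.1). The members and lists were chosen with earlier results of these data known. Genes and sequences at the peaks were not analysed here, since the gene table used here is of another assembly. Uniquely aligned reads leave out much of the repeated DNA where H3K9me3 is found.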

Additional observations from a re-analysis of the deposited data

How the results depend on the processing

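Of 210 values recomputed under 14 alternatives, 154 stayed within their interval or a factor of 1.5, 50 moved and 6 changed direction. Of the 154, 59 were identical to the reported value and say nothing about stability, since the alternative does not act on them or, for the limit to chromosomes 1 to 29 and X, left all 15 values as they were. The number of lost peaks was 260 among H3K9me3 peaks wider than the median and between 768 and 1224 under the others. Median width stayed lower for lost peaks under each alternative that acts on it. The median distance to a kept peak, 1254 kb, was 872 kb with a reciprocal overlap of 50%, 1615 kb when peaks within 1 kb counted as touching, 1586.5 kb after merging within 1 kb, 813 kb without peaks of the lowest width, 1502 kb without the spans of the 3 longest runs and 1786 kb as the median of chromosome medians. The share with another lost peak within 100 kb was 50.7%, 36.2% and 35.0% under the first 3 of these, 33.8% above the median width and 37.4% without the 3 runs, and it was 21.5% within 10 kb and 68.9% within 1 Mb. The share touching acetylation after weaning was 2.69% when 1 kb counted as touching and 2.31% above the median width, and 0% by construction without acetylation peaks on H3K9me3.

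Ratios of median distances, lost over kept, depended most on the setting. Without acetylation peaks on H3K9me3 they were 0.753 for H3K9ac before, 0.594 for H3K9ac after and 0.617 for H3K27ac after weaning, in place of 1.52, 3.56 and 1.82. After merging they were 0.995, 1.98 and 1.00 (0.9998 before rounding). With RNA pol II not used they were 2.79, 37.6 and 7.58, and with the chromosome 17 cluster kept 3.09, 16.0 and 4.36, the ratio for H3K27ac before weaning then being 1.04 in place of 0.626. Above the median width the ratio for H3K9ac after weaning was 6.96. The cause of these shifts was not tested, apart from those fixed by construction. Leaving out acetylation on H3K9me3, leaving out the longest runs and chromosome medians were chosen after seeing the data. No paired analysis was possible because each group held 1 library, and the position relative to genes was not run.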

Other observations

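The rows of the H3K9me3 list before weaning have an order that is not stated in the sources used here. The first lost peak was in row 84 of 2410, and the median row was 1471.5 (95% interval 1393 to 1511) for lost, 1285 (1122 to 1412) for kept and 734 (691 to 776) for all 1291 kept peaks.

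Lost peaks that touched RNA pol II, outside the chromosome 17 cluster, numbered 54, of which 31 touched an RNA pol II peak before and 32 one after weaning by the labels. The study's text assigns the shorter RNA pol II list to before weaning, where the labels assign it to after weaning.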
